A study of Mus musculus with 24 samples.

Results

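A chosen set of 8 carbonic anhydrase genes, called the family here, was examined for Cdx2 peaks in mouse colon organoids. The genes were Car1, Car2, Car3, Car13, Car4, Car8, Car9 and Car12. A peak was counted for a gene when its summit lay in the gene body or within 50 kb to either side in the GENCODE vM21 annotation. Across the 12 Cdx2 peak lists, 242 peaks met this rule, and peaks that overlapped by at least 1 bp merged into 49 regions of the 61454 found in the genome. Of the 49 regions, 22 lay on chromosome 3, where Car13, Car1, Car3 and Car2 stand side by side, and each was counted once although 4 fell into the windows of more than 1 gene.

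Cdx2 binding was mapped by ChIPmentation, in which a transposase inserts the adapters while the chromatin is bound to the antibody beads. The organoids are epithelial cultures grown from the first or the last stretch of the colon of female mice aged 8 weeks. The authors state that 3 mice supplied the proximal and distal organoids. They were grown over 4 months with WENR-plus, a medium that supplies Wnt3a, EGF, Noggin and R-spondin 1. The WENR-minus organoids were plated for 2 days in that medium and then kept for 3 days without the factors. All groups carried 1 Cre-inducible Braf V600E allele (Braftm1Mmcm) and 1 Cre-inducible tdTomato reporter at ROSA26, and no Cre is named for these samples. Each colon site was thus sampled in both media, with 3 Cdx2 libraries in each of the 4 groups, and the 12 input libraries entered only as the control of each peak call. The lists hold no expression values, so cell type markers could not be checked.

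Carbonic anhydrases turn carbon dioxide and water into bicarbonate and a proton. In the colon surface epithelium this feeds the exchangers that take up sodium for protons and chloride for bicarbonate, and Car1, Car2 and Car4 are well-known products of differentiated colonocytes. Cdx2 is the homeodomain factor that holds the identity of intestinal epithelium, and it binds AT-rich sites of the form TTTATG or TTTATT followed by A or G. The proteins differ in place: Car1, Car2, Car3 and Car13 are cytosolic, Car4 is tethered to the outer face of the membrane, Car9 and Car12 span it with the enzyme outside, and Car8 is a relative that has lost the activity.

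The letters under the summits are given here for the region of each gene that was called in the most libraries, where that was 6 or more, and for the other regions the results turn on. Each line runs from 50 bases before to 50 bases after the median summit on the plus strand of mm10, read from the GRCm38.p6 sequence, the same assembly. Capitals mark one of the 4 Cdx2 words or its reverse complement, such as TCATAAA for TTTATGA.

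Car1, 28.0 kb into the gene, chr3:14780350-14780450: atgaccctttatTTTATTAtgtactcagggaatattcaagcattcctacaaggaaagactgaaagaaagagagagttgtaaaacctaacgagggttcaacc

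Car1, 3.4 kb into the gene, chr3:14804922-14805022: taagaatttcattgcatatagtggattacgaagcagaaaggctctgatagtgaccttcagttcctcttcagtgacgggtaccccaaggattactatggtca

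Car1, 1.3 kb into the gene, chr3:14806986-14807086: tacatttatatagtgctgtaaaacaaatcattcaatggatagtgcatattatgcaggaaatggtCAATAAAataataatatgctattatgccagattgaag

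Car13, 21.4 kb upstream, chr3:14620231-14620331: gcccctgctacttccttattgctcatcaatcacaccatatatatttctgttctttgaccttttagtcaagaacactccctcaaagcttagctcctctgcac

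Car2, 44.6 kb past its start, chr3:14930852-14930952: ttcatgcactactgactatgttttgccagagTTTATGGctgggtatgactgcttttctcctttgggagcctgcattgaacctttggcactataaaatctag

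Car4, 22.4 kb upstream, chr11:84935313-84935413: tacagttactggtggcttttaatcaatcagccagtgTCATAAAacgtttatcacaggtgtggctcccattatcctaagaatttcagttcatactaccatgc

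Car8, 20.8 kb into the gene, chr4:8218219-8218319: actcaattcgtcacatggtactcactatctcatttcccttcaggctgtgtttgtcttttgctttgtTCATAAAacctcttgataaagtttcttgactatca

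Car8, 6.8 kb upstream, chr4:8245751-8245851: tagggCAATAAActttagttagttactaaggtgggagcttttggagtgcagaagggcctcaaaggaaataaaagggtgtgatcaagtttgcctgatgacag

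Car9, 4.2 kb upstream, chr4:43502731-43502831: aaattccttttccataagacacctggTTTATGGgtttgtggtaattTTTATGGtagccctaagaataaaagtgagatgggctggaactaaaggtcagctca

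Car12, 55.8 kb past its start, chr9:66769400-66769500: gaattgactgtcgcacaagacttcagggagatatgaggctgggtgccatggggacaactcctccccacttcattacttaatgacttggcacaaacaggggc

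Of these 10 windows, those at Car13, at 3.4 kb into Car1 and past Car12 held none of the Cdx2 words. Over all 49 regions, 25 held a word within 50 bp of the median summit, which is 51.0% (exact 95% interval 36.3 to 65.6), against 60.4% of the 61454 regions of the genome. For the 5 regions called in all 12 libraries the count was 2, against 73.1% of the 2079 such regions in the genome. Within 100 bp, 34 of the 49 regions held a word (69.4%) against 80.2% of all regions. Of the 5 regions called in all 12 libraries, 4 held a word within 100 bp, against 83.7% of the 2079. No motif beyond these letters was scored, so a window without a word can hold a weaker site. The GATA word AGATAA, on either strand and within 50 bp, was present at 4 of the 49 regions and at 9.95% of all regions. The AP-1 words TGACTCA and TGAGTCA, which are the reverse complements of each other, were present at 2 regions and at 3.84% of all, and the HNF4 word CAAAGTCCA at 0 regions and at 0.449% of all.

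The Cdx2 lists held between 5608 and 42192 peaks on the chromosomes analysed, 11409 to 42192 in the proximal and 5608 to 21040 in the distal libraries. Each peak's height in whole fragments was solved from its deposited fold and p-value. A whole number fitted within 0.1% for 99.6% to 99.95% of a library's peaks. The median peak rested on 13 to 18 fragments, and the lowest on 8 to 11, so a single value is coarse: 17 fragments have an exact Poisson 95% interval of 9.90 to 27.2. Such intervals cover counting error only.

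The number of carbonic anhydrase regions called in a library ran from 8 to 39, with 17 to 39 in the proximal and 8 to 15 in the distal libraries. Set against list length, the genes held 13.0 ± 5.35 peaks per 10000 of the list in WENR-plus and 13.6 ± 4.18 in WENR-minus medium for proximal organoids (SD, n = 3). For distal organoids the shares were 13.0 ± 2.74 and 12.5 ± 4.82 (SD, n = 3). With a replicate number of a site taken as 1 organoid line and its media averaged, the proximal lines had 11.1, 10.1 and 18.8 peaks per 10000 and the distal lines 8.99, 12.9 and 16.2. The ranges overlapped, and the difference of 0.572 had an exact two-sided permutation p of 0.9, where 3 lines against 3 cannot go below 0.1. With every list cut to its 5608 peaks of smallest deposited p-value, the difference was 5.94 per 10000 with proximal higher, at an exact permutation p of 0.2.

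**Figure D1:**
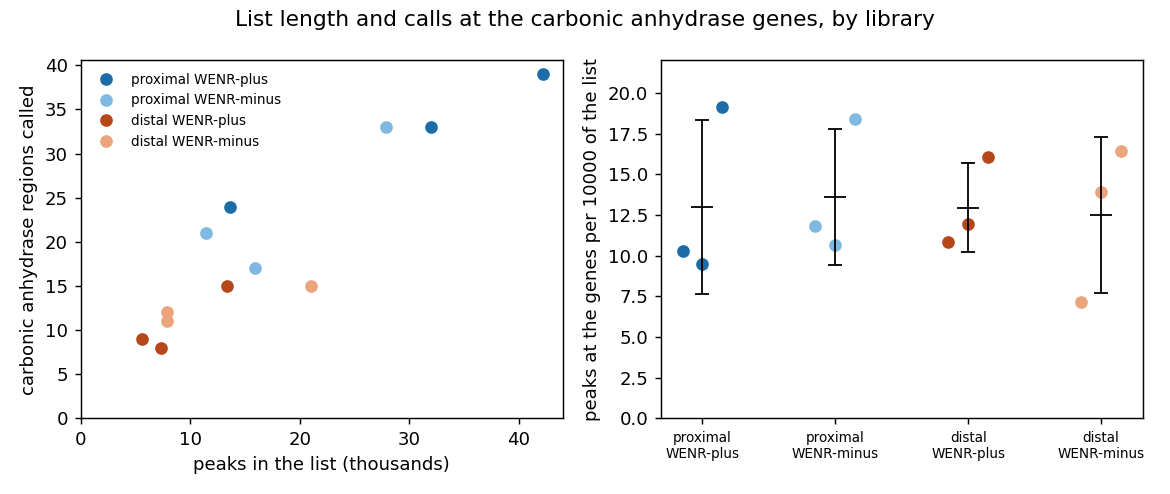
The left panel plots the carbonic anhydrase regions called in each library against the number of peaks in its list, and the right panel the peaks at these genes per 10000 of the list, as points for each library with the mean and SD of 3 per group. The proximal libraries hold 17 to 39 regions and the distal ones 8 to 15, while the shares of the 4 groups overlap.

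Of the 49 regions, 11 were called in 1 library, which is 22.4%, beside 42.2% of all regions in the genome. Of the rest, 33 were called in more than 1 library but not all, and 5 in all 12. In all 3 libraries of at least 1 group, 23 regions were called, and the other 26 were in 1 to 6 libraries. The 5 regions in all 12 libraries are 10.2% of the family's regions, beside 3.38% of all regions in the genome. Of the 8 genes, 3 had such a region in their window, Car13, Car1 and Car12, beside 12.9% of the 21938 protein-coding genes. Car1 had 3 of them, and 0.615% of protein-coding genes had 3 or more. The genes were chosen with earlier results of these data known, so these shares describe the chosen genes and test nothing. By place, 27 of the 49 regions were intergenic, 10 intronic, 1 exonic and 11 within 3 kb of an annotated start site of any gene.

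**Figure D2:**
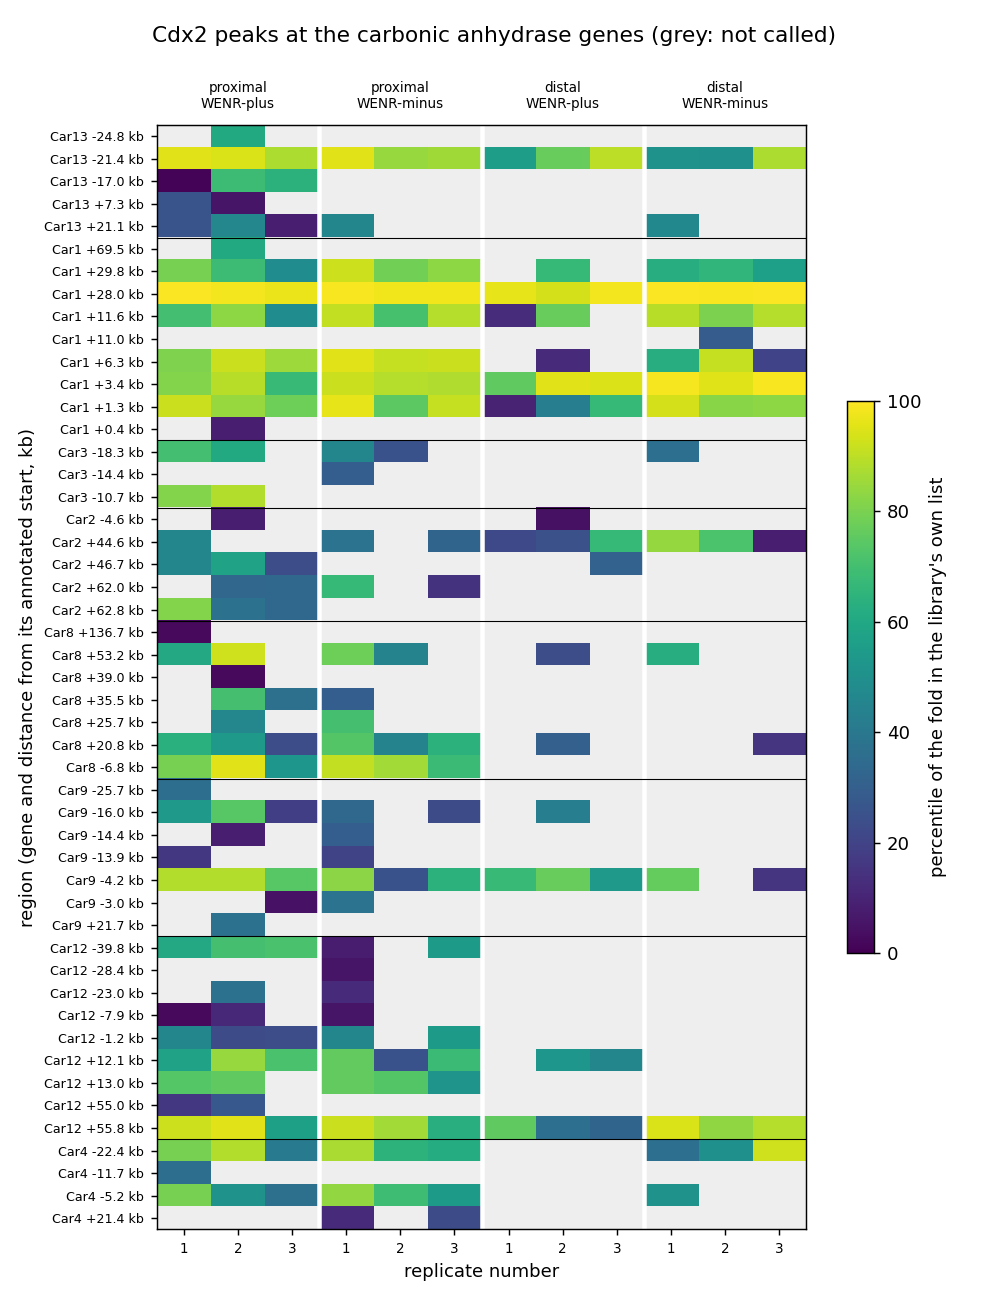
Each row is a carbonic anhydrase region, named by the carbonic anhydrase gene it was assigned to and its distance from that gene's annotated start in kb, and each column a library. Colour gives the percentile of the peak's fold within its own list, and grey means not called. The region 28.0 kb into Car1 lies between the 93.5th and the 99.6th percentile in every library. Of the 49 rows, 28 are filled in proximal libraries only (57.1%), beside 56.4% of all regions in the genome.

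Car1, a cytosolic enzyme that is abundant in colon and in red blood cells, was the most densely bound member. It occupies chr3:14766216-14808368 on the minus strand and is annotated with outer start sites at 14808368 and 14808365 and an inner one at 14778459, 29.9 kb into the gene. The gene is known to be transcribed from separate start sites in red cell precursors and in colon. Its body held 8 regions, 6 of them called in 10 or more libraries and spread over 28.5 kb. No other protein-coding gene lay within its window.

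The region 28.0 kb into Car1 (chr3:14779871-14780956) was the strongest of the family. Its median summit lay 1941 bp upstream of the inner start site, and the summits of the 12 libraries fell within 141 bp of each other. In proximal organoids the fold was 24.4, 19.4 and 19.7 in WENR-plus and 25.5, 19.1 and 19.7 in WENR-minus medium. In distal organoids it was 13.7, 11.7 and 17.1 in WENR-plus and 21.6, 17.7 and 23.4 in WENR-minus medium. As deposited, the fold was lowest in distal WENR-plus and the other 3 groups overlapped each other. Divided by the library's median fold over the regions called in all 12 libraries, distal WENR-plus had a mean of 1.62 and reached 2.00, which overlapped proximal WENR-plus, at 1.48 to 2.01. The peak stood on 30 to 94 fragments and ranked at a median percentile of 98.2 in its list. Its only Cdx2 word in the printed window, TTTATTA, was centred 35 bp from the median summit.

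The region 29.8 kb into the gene (chr3:14778222-14779257) covered the inner start site, with its median summit 116 bp upstream of it. It was called in all 6 proximal libraries, in all 3 distal WENR-minus libraries and in 1 of 3 distal WENR-plus libraries, at a fold of 5.81 to 11.0. No Cdx2 word lay within 50 bp of its summit. This was the only region with a median summit within 1 kb of a Car1 start site other than a region 0.352 kb into the gene that was called in 1 library.

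Near the outer start sites, the region 1.3 kb into Car1 (chr3:14806598-14807766) was called in every library. Proximal organoids had a fold of 10.5, 8.15 and 9.20 in WENR-plus and of 14.5, 7.71 and 12.6 in WENR-minus medium. Distal organoids had 4.83, 5.77 and 7.68 in WENR-plus and 10.3, 8.28 and 8.74 in WENR-minus medium. Distal WENR-plus was lowest in fold as deposited. Divided by the library's median fold over the regions called in all 12 libraries, it ran from 0.561 to 0.90 and overlapped proximal WENR-plus, at 0.619 to 0.860. Its reverse-strand word CAATAAA was centred 17 bp from the median summit.

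The region 3.4 kb into Car1 (chr3:14804287-14805402) was the one region of the family whose fold passed the test between the colon sites. In proximal libraries the fold was 7.61, 9.41 and 7.83 with WENR-plus and 10.7, 10.3 and 11.1 with WENR-minus medium. In distal libraries it was 7.93, 12.9 and 13.2 with WENR-plus and 15.5, 11.5 and 20.6 with WENR-minus medium. The distal libraries were high and the proximal low, with 1 distal WENR-plus library among the proximal values. It lay 2398 bp upstream of the start of Gm16399, a gene annotated inside Car1, and held no Cdx2 word in the printed window.

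A region 6.3 kb into Car1 (chr3:14801710-14802513), 511 bp past the start of Gm16399, leaned the other way. Its fold in proximal organoids was 7.55, 10.7 and 11.0 in WENR-plus and 13.7, 11.3 and 13.0 in WENR-minus medium. Among the distal libraries it was called in 1 of 3 in WENR-plus, at 4.47, and in 3 of 3 in WENR-minus, at 5.81, 9.86 and 4.75. A peak of its median fold, 10.3, would have stood above 87.5% to 90.3% of the peaks of the 2 distal lists that lacked it. That median mixes calls of both sites, whose deposited folds are not on one scale. Over the libraries that called the region, the log2 difference in fold was 0.75 with proximal higher (limma adjusted p = 0.0662, fit of the 4550 regions called in 10 or more libraries). The region 11.6 kb into the gene (chr3:14796218-14797279) was called in 11 libraries at a fold of 4.85 to 11.5 and was missing from 1 distal WENR-plus library.

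**Figure D3:**
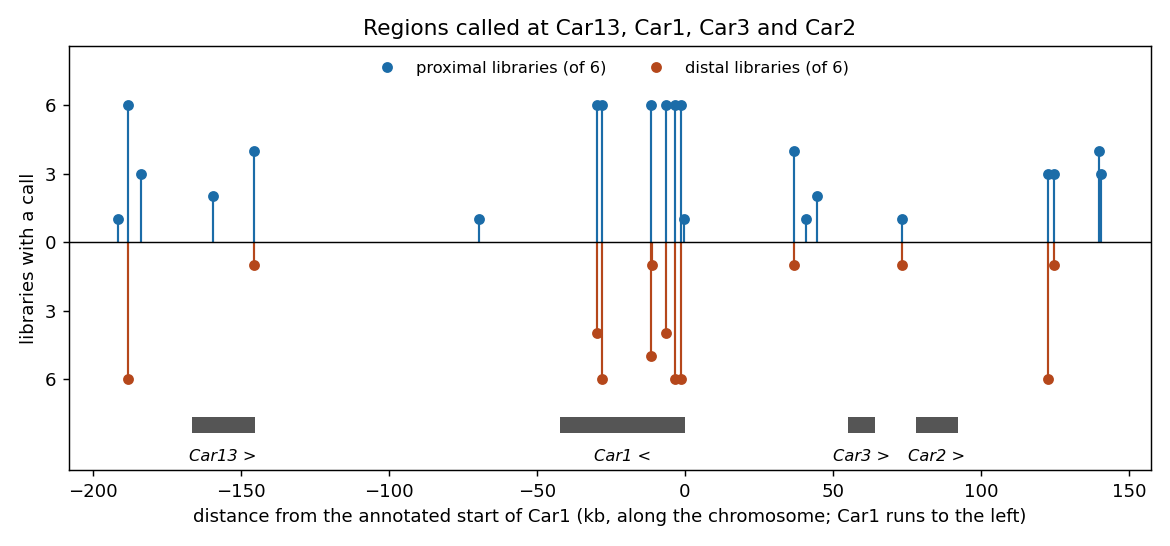
Regions at Car13, Car1, Car3 and Car2 are placed by the distance of their median summit from the annotated start of Car1, in kb along the chromosome, with the number of proximal libraries drawn upward and of distal libraries downward, and gene bodies as bars. The 6 regions inside Car1 that were called in 10 or more libraries span 28.5 kb, and no region lies inside Car3 or Car2.

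Car13, another cytosolic member, lies at chr3:14641727-14663002 on the plus strand and had 5 regions. The region 21.4 kb upstream (chr3:14619807-14620608) was in all 12 libraries and lay between genes. The proximal libraries gave a fold of 13.0, 12.2 and 11.7 in WENR-plus and 13.4, 9.20 and 10.4 in WENR-minus medium. The distal libraries gave 6.61, 8.0 and 11.1 in WENR-plus and 5.25, 5.92 and 9.79 in WENR-minus medium. The deposited fold was higher in the proximal libraries, with replicate 3 of both distal groups reaching into their range. Divided by the library median, those replicates stood at 1.30 and 1.12, above the proximal range of 0.929 to 1.11, and the other distal values, 0.561 to 0.833, below it. A region 17.0 kb upstream (chr3:14624651-14625043) was called in the 3 proximal WENR-plus libraries and in no other. A region at an exon, 21.1 kb into the gene (chr3:14662793-14663105), was called in 5 libraries, 3 of them proximal WENR-plus.

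Car2, the fast cytosolic enzyme of many epithelia, lies at chr3:14886273-14900770 and Car3, a slow form best known from muscle and fat, at chr3:14863512-14872523, both on the plus strand. Neither had a region in its body or within 3 kb of a start site. The region called most often in the Car2 window lay 44.6 kb past its start (chr3:14930738-14931188), beyond the end of the gene. It was called in all 6 distal libraries and in 3 of 6 proximal ones, at a fold of 4.19 to 7.75, and was 1 of only 2 of the 49 regions with more distal than proximal libraries (Fisher's exact p = 0.182, adjusted p = 0.810). The second was called in 1 distal library alone, 11.0 kb into Car1. Regions 46.7 kb (chr3:14932773-14933220) and 62.8 kb (chr3:14948945-14949164) past the Car2 start were called in all 3 proximal WENR-plus libraries, the first also in 1 distal WENR-plus library. The Car3 window held 4 regions, all shared with the windows of Car1 or Car2, and the most often called of them, 18.3 kb upstream of Car3, was in 5 libraries.

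Car4, the membrane-tethered enzyme of the apical surface, lies at chr11:84957786-84966044 on the plus strand and had 4 regions, none inside the gene. The region 22.4 kb upstream (chr11:84934982-84935796) was called in all 6 proximal and all 3 distal WENR-minus libraries and in 0 of 3 distal WENR-plus libraries. Its fold ran from 4.84 to 11.9 where called. The 3 distal WENR-plus lists that lacked it held 7378, 13371 and 5608 peaks. A peak of its median fold, 6.73, would have stood above 50.8% to 63.5% of their peaks. That median mixes calls of both sites, whose deposited folds are not on one scale. The region 5.2 kb upstream (chr11:84952375-84952845) had a fold of 7.29, 5.26 and 5.60 in WENR-plus and 8.06, 7.08 and 6.29 in WENR-minus medium in proximal organoids, and 5.25 in 1 distal WENR-minus library. It was therefore present in 6 of 6 proximal and 1 of 6 distal libraries (Fisher's exact p = 0.0152, adjusted p = 0.289). Both windows held a Cdx2 word within 50 bp of the summit.

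Car8, the inactive relative known from the cerebellum, lies at chr4:8143362-8239041 on the minus strand and had 7 regions, 5 of them inside the gene and all of those in introns. The region 6.8 kb upstream of its start (chr4:8245438-8246132) gave the clearest split of the family. Its proximal fold was 7.29, 13.5 and 6.65 in WENR-plus and 10.2, 9.55 and 7.40 in WENR-minus medium, on 19 to 42 fragments. It was in none of the 6 distal lists (Fisher's exact p = 0.00216, the smallest that 6 against 6 allows, adjusted p = 0.114). The test counts both media as separate samples, although their libraries came from the same mice. A peak of the region's median fold, 8.48, would have stood above 74.5% to 88.3% of the peaks of the distal lists. That fold came from proximal libraries alone. Over regions called in all 12 libraries the median fold was 9.91 to 13.2 in proximal and 7.89 to 10.3 in distal libraries. The rank therefore does not show how such a peak would stand in distal organoids. The region 20.8 kb into Car8 (chr4:8217904-8218526) was called in all 6 proximal and 2 of 6 distal libraries at a lower fold, 4.54 to 7.03.

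Car9, a membrane enzyme induced by low oxygen, lies at chr4:43506966-43513729 on the plus strand in a window that holds 6 other protein-coding genes. Of its 7 regions, the one 4.2 kb upstream (chr4:43502485-43503434) was called in 11 libraries and missed in 1 distal WENR-minus library. Its fold was 4.54 to 9.19, and it held TTTATGG as separate copies, the nearer centred 1 bp from the median summit. It lay 3.09 kb from the start of Arhgef39, closer than to that of Car9, so the nearest gene was not the member. The region 16.0 kb upstream (chr4:43490768-43491245) was in 5 proximal and 1 distal libraries and lay 1.91 kb from the start of Ccdc107.

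Car12, the membrane enzyme of fluid-secreting epithelia, lies at chr9:66713686-66766845 on the plus strand and had 9 regions. The region 55.8 kb past its start (chr9:66769082-66769862), just beyond the end of the gene, was in all 12 libraries. Its proximal fold was 10.7, 13.5 and 6.71 in WENR-plus and 10.8, 9.55 and 6.99 in WENR-minus medium. Its distal fold was 7.93, 5.44 and 5.79 in WENR-plus and 11.0, 8.28 and 10.1 in WENR-minus medium. The 2 sites overlapped, and within distal organoids the WENR-minus libraries were the higher.

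Of the other Car12 regions, 3 were called in 5 of 6 proximal and 0 of 6 distal libraries (Fisher's exact p = 0.0152, adjusted p = 0.289 for each). The region 1.2 kb upstream (chr9:66712091-66712620) was the only one of the family at the annotated promoter of a member other than Car1, and its fold was 5.07, 4.35 and 5.09 in proximal WENR-plus and 4.84 and 6.29 in replicates 1 and 3 of proximal WENR-minus. The region 39.8 kb upstream (chr9:66673696-66674149) had 5.70, 6.27 and 8.22 in proximal WENR-plus and 3.66 and 6.29 in the same replicates of proximal WENR-minus. The region 13.0 kb into the gene (chr9:66726153-66727037) had 6.66 and 6.80 in replicates 1 and 2 of proximal WENR-plus and 6.72, 7.43 and 6.24 in proximal WENR-minus. Its neighbour 12.1 kb into the gene (chr9:66725568-66726119) was called in all 6 proximal and in 2 distal WENR-plus libraries. Peaks of the median fold of the promoter region, 5.07, would have stood above only 13.8% to 42.7% of the peaks of the lists that lacked it, so at that height its absence from the distal lists could not be told from a peak just under the calling limit.

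The comparison between colon sites was made on calls for all regions and on fold for those in every library. On calls, 28 of the 49 regions were found in proximal libraries only, which is 57.1%, beside 56.4% of all regions in the genome. Of the 38 regions called in 2 or more libraries, 31 had more proximal than distal libraries, 81.6% beside 76.3% of all regions tested. By Fisher's exact test at an unadjusted p under 0.05, 5 of the 38 were called more often in proximal libraries, beside 4.96% of all 35518 regions tested, and 0 more often in distal libraries, beside 0.282%. These were the regions 6.8 kb upstream of Car8, 5.2 kb upstream of Car4, and 39.8 kb upstream, 1.2 kb upstream and 13.0 kb into Car12. None passed after Benjamini-Hochberg adjustment, and 0 of all 35518 regions did. Fisher's exact tests here count the libraries of both media as separate samples, although they came from the same mice. Without replicate 1, or without replicate 3, the unadjusted count of 5 fell to 2, with fewer libraries in each test.

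List length moved with this comparison, so every list was also cut to its 5608 peaks of smallest deposited p-value. Of the 49 regions, 22 then remained, and 16 of them were in 2 or more lists. Of these 16, 10 had more proximal than distal libraries (62.5%, beside 37.5% of all regions tested) and 3 more distal than proximal (18.8%, beside 33.7%). At an unadjusted p under 0.05, 2 of the 16 were called more often in proximal libraries, beside 3.35% of all, and 0 more often in distal libraries, beside 1.54%. These were the region 6.8 kb upstream of Car8, in 5 of 6 proximal and 0 of 6 distal lists, and the region 6.3 kb into Car1, in 6 of 6 and 1 of 6 (Fisher's exact p = 0.0152 for both). The 3 Car12 regions and the one 5.2 kb upstream of Car4 were left with 1 to 3 proximal and 0 distal lists.

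On fold, limma was run over the 2079 regions called in all 12 libraries, with each library divided by its median fold over those regions. These medians ran from 9.91 to 13.2 in the proximal and from 7.89 to 10.3 in the distal libraries. Of the 5 carbonic anhydrase regions, 1 differed between the sites, beside 16.9% of all regions tested. It was the region 3.4 kb into Car1. Relative to the library median, the proximal fold was 0.625, 0.714 and 0.667 in WENR-plus and 0.889, 1.04 and 1.11 in WENR-minus medium. The distal fold was 1.00, 1.25 and 1.55 in WENR-plus and 1.66, 1.46 and 2.36 in WENR-minus medium. Within each medium the proximal and distal libraries did not overlap. The fold was 1.82 times higher in the distal libraries, a log2 difference of -0.86 (proximal minus distal, 95% interval -1.21 to -0.51, SE 0.17, limma adjusted p = 0.00245).

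Within WENR-plus medium the log2 difference of that region was -0.90 (SE 0.23, limma adjusted p = 0.0328), and 1 of the 5 carbonic anhydrase regions passed beside 6.20% of all. That call was lost without replicate 1, 2 or 3, without any one of the proximal WENR-plus libraries and without replicate 2 or 3 of distal WENR-plus, with limma adjusted p from 0.0524 to 0.262. Within WENR-minus medium it was -0.83 (SE 0.23, limma adjusted p = 0.0611), and 0 of 5 passed beside 2.98% of all. Without replicate 2 the adjusted p over both media rose to 0.0511, with a log2 difference of -0.97. The other 4 regions had log2 differences between -0.12 and 0.24. Their 95% intervals were -0.42 to 0.27 for the region 28.0 kb into Car1, -0.29 to 0.45 for that 1.3 kb into Car1, -0.16 to 0.63 upstream of Car13 and -0.52 to 0.28 past Car12, so differences of up to 1.55 times at Car13 lie within the error. Libraries of both media came from the same 3 mice, and these p-values treat them as separate samples.

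**Figure D4:**
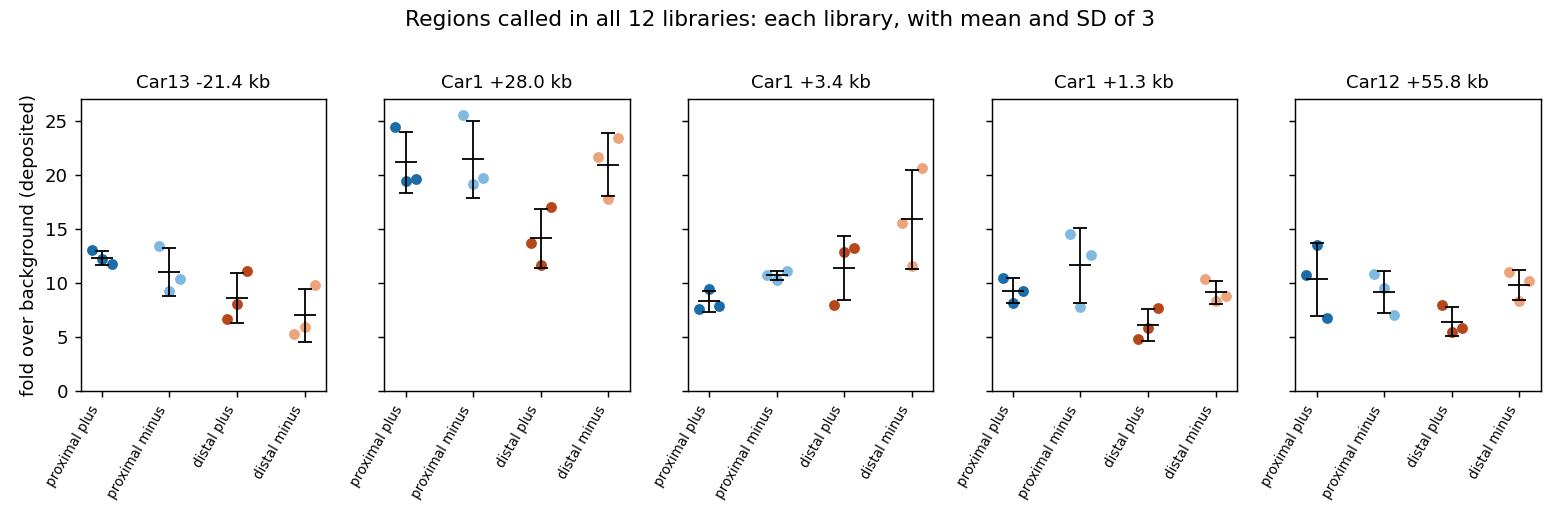
Deposited fold over background at the 5 carbonic anhydrase regions called in every list, with 1 point per library and the mean and SD of 3 per group. At the region 3.4 kb into Car1 the distal groups are high, from 7.93 to 20.6, against 7.61 to 11.1 in the proximal groups, while at the region 28.0 kb into Car1 the deposited fold is lowest in distal WENR-plus, from 11.7 to 17.1, which overlaps proximal WENR-plus once each library is divided by its median fold.

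Withdrawal of the factors was compared in the same manner. On calls, 0 of the 38 carbonic anhydrase regions were called more often in WENR-plus medium, beside 0.127% of all regions tested, and 0 more often in WENR-minus medium, beside 0.0619% (Fisher's exact test, unadjusted p under 0.05). In lists of equal length it was 0 of 16 in WENR-plus medium, beside 0.251% of all, and 1 of 16 in WENR-minus medium, beside 0.319%. On fold, 0 of the 5 regions passed for WENR-minus against WENR-plus, beside 0.770% of the 2079 regions, and 3 of the 5 had an unadjusted p under 0.05, beside 15.1% of the 2079. The 3 were the Car1 regions, and each was higher in WENR-minus medium. The log2 difference was 0.42 (95% interval 0.08 to 0.77) at 28.0 kb, 0.56 (0.21 to 0.91) at 3.4 kb and 0.57 (0.20 to 0.94) at 1.3 kb into the gene, with limma adjusted p of 0.234, 0.121 and 0.132. With the replicate number added to the fit as a block, 2 of the 5 passed, beside 3.66% of the 2079. They were the regions 3.4 kb and 1.3 kb into Car1. The authors describe the replicates as from independent mice, but do not state that a number marks the same mouse in every group.

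Beside the Car1 regions, the log2 difference without the block was 0.37 (95% interval -0.03 to 0.77) past Car12 and -0.12 (-0.51 to 0.27) upstream of Car13. In proximal organoids alone 0 of 5 passed (0 of all 2079, or 0%), and 1 of 5 had an unadjusted p under 0.05, beside 181 of the 2079 (8.71%). In distal organoids alone 0 of 5 passed (0 of all 2079, or 0%), and 4 of 5 had an unadjusted p under 0.05, beside 223 of the 2079 (10.7%). The change with medium did not pass for a difference between the colon sites at any of the 5 regions (0 of all 2079, or 0%, 88 of them at an unadjusted p under 0.05), and the limma adjusted p was 0.998 at each. The largest of these differences, -0.59 on the log2 scale past Car12, had a 95% interval of -1.39 to 0.21.

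The other carbonic anhydrase genes had fewer regions by the median in the same window, although Car10 had more than Car13, Car3 or Car4. Of Car5a, Car5b, Car6, Car7, Car10, Car11, Car14 and Car15, 7 had a region in any library (87.5%, beside 84.5% of protein-coding genes), with a median of 1 per gene beside 7 for the 8 genes described here and 2 for all protein-coding genes. A region called in all 12 libraries was found at 1 of them, Car11, whose window holds 9 other protein-coding genes. Car7, a cytosolic form, had 3 regions, of which the most frequent was in 10 libraries, and Car10, an inactive relative spanning a very long gene, had 6, none in more than 3 libraries. Among 11 genes of bicarbonate and proton transport, 11 had a region, beside 84.5% of protein-coding genes, and 5 had one in all 12 libraries (45.5%, beside 12.9%). The 5 were Slc26a3 and Cftr, with 2 each, Slc9a2 with 3, and Slc4a1 and Slc4a7 with 1 each. All these gene lists were chosen with earlier results of these data known, so the contrasts between them are no test.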

How the data were processed

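Cdx2 ChIPmentation was profiled in 12 libraries, and the 12 inputs served only as the authors' controls. The submitters' processing notes name Trimmomatic 0.39, Bowtie2 2.4.5, SAMtools 1.13, MACS2 2.2.7.1 and mm10. The authors called the peaks of every library against its own input at q 0.01. The deposited lists give for each peak a fold over background, a ratio with a pseudocount of 1, and the −log10 p-value and −log10 q-value deposited by the authors. No reads per region were used, so presence was tested with Fisher's exact test and the log2 fold with limma 3.58.1 (R 4.3.3) in one fit of 4 groups, both adjusted by Benjamini-Hochberg over all regions tested.

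Peaks outside the assembled chromosomes were left out and overlapping peaks were merged. Where a library had several in a region, the one of highest fold was used. The genes, gene lists and motifs were chosen with earlier results of these data known. Every region present in all 3 libraries of some group was named, with values per library for those in all 12 libraries or with an unadjusted Fisher p under 0.05. The regions 29.8, 11.6 and 6.3 kb into Car1, and the extra printed sequences, were chosen after their values were seen. Fragments were solved from fold and p-value with scipy 1.17.1. Limma was tested on simulated data with 200 changed regions of 2079. Between the sites it recovered 93 of 100 changes of 1 log2 unit and called 6 unchanged regions. The simulated errors were independent between libraries, so these counts do not cover libraries that share a mouse.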

Additional observations from a re-analysis of the deposited data

How the results depend on the processing

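The count of regions at the carbonic anhydrase genes fell from 49 to 22 with lists of equal length and to 26 with a window of 10 kb, and ran from 42 to 49 when replicates or single libraries were left out. The regions in every list fell from 5 to 2 with lists of equal length, those 28.0 kb into Car1 and past Car12, and were 5 or 6 when libraries were left out. In lists of equal length the region 11.6 kb into Car1 was called in 1 of 6 WENR-plus and 6 of 6 WENR-minus libraries (Fisher's exact p = 0.0152, unadjusted). It was 1 of 16 carbonic anhydrase regions tested, beside 0.319% of all 10356, and 0 passed adjustment. Of the 16, 10 had more WENR-minus libraries (62.5%, beside 31.8% of all) and 3 more WENR-plus libraries (18.8%, beside 32.4%). The site difference per 10000 peaks was -0.664 with the 10 kb window (exact permutation p = 0.9) and ran from -0.401 to 2.30 without single replicate numbers. The count of carbonic anhydrase regions with a site difference in fold over both media was 0 or 1 when replicates or libraries were left out, and 0 without replicate 2. Within WENR-plus medium it was 0 in 8 of the 15 such fits. The motif share was 69.4% with 100 bp to either side. No region passed adjustment for calls by site or by medium under any of the 7 alternatives run for each. Where a replicate number was left out, 8 libraries remained, too few for the test to have much room to pass.

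The authors describe the replicates as from independent mice and trace most of the variation in Cdx2 binding to the mouse. They do not state that a replicate number marks the same mouse in every group. Deviations from the group means over 2079 regions correlated at 0.203 (median of 18 same-numbered pairs, 13 of them over 0.1) against -0.103 for the other 36 pairs. With the replicate block, the regions with a medium difference in fold rose from 0 to 2, those 3.4 kb (limma adjusted p = 0.0388) and 1.3 kb into Car1 (limma adjusted p = 0.0412), while the count over all 2079 regions rose from 16 to 76. Over the other alternatives of these 2 regions the adjusted p ran up to 0.552. Within WENR-minus medium the site call 3.4 kb into Car1 was gained with the block (limma adjusted p = 0.0164). The block changed no other call, and the share difference of 0.572 had an exact sign-flip p of 1, where 0.25 is the smallest possible.

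At 8 to 11 fragments for the weakest calls, absence from a list of a peak of low fold does not show absence of Cdx2, and depth, site and list length cannot be told apart for such regions.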

Other observations

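The transporters that use carbonic anhydrase products held regions of their own. Cftr, the apical chloride and bicarbonate channel, had 26 regions in its window, 21 of them inside the gene, and 2 in all 12 libraries. Slc4a4, a sodium bicarbonate cotransporter, had 21 and none in all 12. Slc9a2, a sodium and proton exchanger, had 18 with 3 in all 12, and Slc26a3, the chloride and bicarbonate exchanger of the colon surface, had 10 with 2 in all 12, 1 of those within 3 kb of a Slc26a3 start site. Slc26a6 and Best2 had 1 region each. These are counts of calls with no test, and longer genes have longer windows.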
